A study of Mus musculus with 6 samples.

Results

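Regulators of cytokine mRNA decay are RNA-binding proteins that set how long the mRNAs of inflammatory mediators last. Their 8 genes, Zfp36, Zfp36l1, Zfp36l2, Zc3h12a, Zc3h12c, Zc3h12d, Rc3h1 and Elavl1, were chosen by symbol from the 54532 genes of the tables, and each symbol had a single entry. Gene expression was measured by RNA sequencing of total RNA from bone-marrow-derived macrophages of C57BL/6 mice, cells grown out of bone marrow precursors in culture. The tested libraries came from macrophages transfected with an siRNA against the chemokine receptor CXCR4 (siCXCR4), and the others from macrophages given a negative control siRNA (siNC). Cells of both groups were treated with LPS, a bacterial cell wall component, at 100 ng/ml for 12 hours, so the data hold no unstimulated cells. The labels name neither the age of the mice nor whether replicates came from separate mice or cultures, so p-values measure a spread between libraries that may be technical.

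Many cytokine mRNAs carry AU-rich elements, runs of A and U with overlapping AUUUA cores, in the 3′ untranslated region (UTR). Tristetraprolin, encoded by Zfp36, and its relatives encoded by Zfp36l1 and Zfp36l2 bind these elements through CCCH zinc fingers and recruit the CCR4-NOT deadenylase, which shortens the poly(A) tail. Regnase-1, encoded by Zc3h12a, is an endoribonuclease that cuts mRNAs at stem-loops with a pyrimidine-purine-pyrimidine loop, and Roquin-1, encoded by Rc3h1, binds stem-loops of the same kind. HuR, encoded by Elavl1, binds AU-rich elements too and is mostly known for stabilising the mRNA. Several of these regulators are induced by LPS in macrophages and act on their own transcripts, as known for Zfp36 and Zc3h12a.

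The sites such proteins recognise can be read in the 3′ UTRs of both the regulators and the cytokines, and a few are shown because the results below set these 2 groups side by side. The sequences are from GENCODE M21 transcripts (genome build GRCm38), 5′ to 3′ on the strand of the gene, with T for U, and each line gives the position and strand. In the first set the capitals mark the AU-rich nonamer TTATTTATT or, in Il6, Il1b and Il10, which lack the nonamer, the heptamer TATTTAT inside it.
Zfp36 chr7:28376951-28376979 (minus): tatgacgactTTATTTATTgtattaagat
Zfp36l1 chr12:80108167-80108195 (minus): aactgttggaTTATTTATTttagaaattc
Zfp36l2 chr17:84184914-84184942 (minus): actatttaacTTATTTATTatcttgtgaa
Elavl1 chr8:4285784-4285812 (minus): tgaaaattatTTATTTATTtatttatttt
Rc3h1 chr1:160970043-160970071 (plus): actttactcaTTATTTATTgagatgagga
Tnf chr17:35199682-35199710 (minus): ttattatttaTTATTTATTtattatttat
Il6 chr5:30019728-30019756 (plus): tttatgattgaTATTTATtatttttatga
Il1b chr2:129364808-129364836 (minus): aaccacttaccTATTTATttatgtattta
Il10 chr1:131024385-131024413 (plus): tctctccgaaaTATTTATtacctctgata
Dusp1 chr17:26506159-26506187 (minus): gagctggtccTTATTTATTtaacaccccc

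In the next set the capitals mark a possible stem-loop, defined as 5 Watson-Crick base pairs closing a loop of 3 bases in the order pyrimidine, purine, pyrimidine. Zc3h12a is shown beside Tnf, Nfkbid and Nfkbiz, mRNAs known as targets of Regnase-1 or Roquin.
Zc3h12a chr4:125119062-125119090 (minus): ccctgttgATACACATTGTATctctgtca
Zc3h12a chr4:125118880-125118908 (minus): gctagttaGGCACCATGTGCCtgctctct
Tnf chr17:35199578-35199606 (minus): cagacatgTTTTCTGTGAAAAcggagctg
Nfkbid chr7:30428395-30428423 (plus): tctaggtgATTTCTGTGAAATcgagccca
Nfkbiz chr16:55812607-55812635 (minus): tgtaagttGTTTCTATGAAACaaacccat

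Searched on the transcript strand only, 6 of the 8 regulators held TATTTAT, 5 held TTATTTATT and 3 held a stem-loop. Over 1 UTR for each of 20730 genes the shares were 26.1%, 7.13% and 19.8%, with a median UTR length of 848 bases against 2081 bases for the regulators. A nonamer always contains the heptamer, so these counts overlap. Zfp36, Zfp36l1 and Zfp36l2 each had 3 heptamers and 1 nonamer, and in Elavl1 all 8 heptamers lay inside nonamers. Of UTRs of like length to Zfp36, Zfp36l1, Zfp36l2 and Elavl1, 19.6%, 38.3%, 38.2% and 61.9% held a heptamer. The shares with a nonamer were 4.29%, 9.53%, 9.37% and 17.8%. Zc3h12a had no heptamer and 3 stem-loops in 856 bases, where 15.8% of UTRs of like length (within 25%) held a stem-loop. Rc3h1 had 2 heptamers, 1 nonamer and 4 stem-loops in 7181 bases, and the stem-loops starting at bases 2002 and 2005 overlap. Of UTRs of like length, 78.0% held a heptamer, 29.3% a nonamer and 68.1% a stem-loop. Zc3h12c had 2 heptamers and 1 stem-loop in 4062 bases, where 61.0% of UTRs of like length held a heptamer and 51.2% a stem-loop. In Zc3h12d neither kind was found in 2327 bases. Of 23 cytokine and chemokine mRNAs, 20 held the heptamer, at 4.16 sites per kilobase against 0.910 in the regulators and 0.315 over all genes. Tnf had the heptamer 8 times in 764 bases. Overlapping matches were each counted, such as the heptamers starting at bases 446 and 450 in Tnf. Nonamers of Elavl1 overlap too, for instance those starting at bases 3794 and 3798. Counts and sites per kilobase are thus not numbers of separate sites. A match is a run of letters and not evidence of binding.

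**Figure D1:**
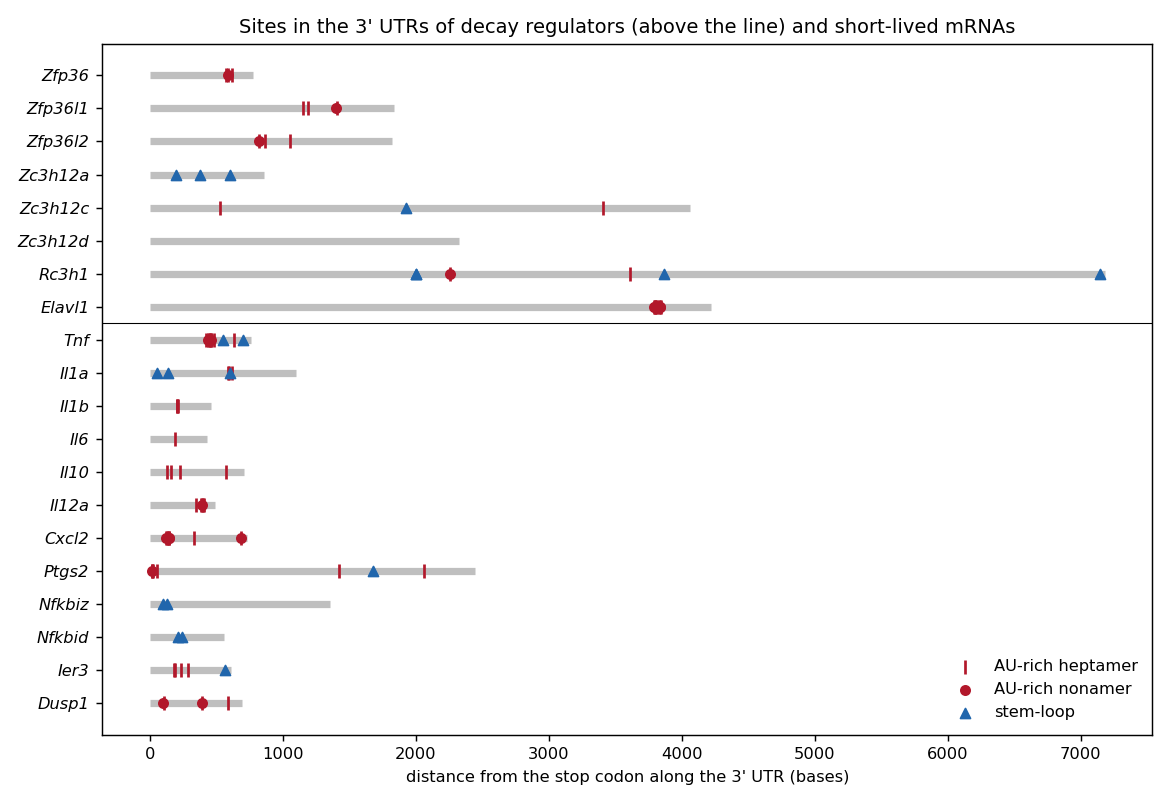
Position of AU-rich heptamers (bars), AU-rich nonamers (circles) and possible stem-loops (triangles) along the 3′ UTR (grey), as distance from the stop codon in bases, for the 8 regulators above the line and 12 short-lived mRNAs below it. Elavl1 carries its nonamers in 1 cluster far from the stop codon, and Zc3h12a carries stem-loops with no AU-rich match.

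Levels are in FPKM, a read density scaled to gene length and to the size of the library, and whole reads were worked back from them. The table labelled siNC replicate 3 held whole counts that matched siNC replicate 2 gene for gene (19072 genes with reads), so it was counted once. This left 3 siCXCR4 and 2 siNC libraries with 18890751 to 21780840 reads in genes. The library labelled siCXCR4 replicate 2 stood apart from the other siCXCR4 libraries. Its chi-square per gene, a measure of distance between the reads of 2 libraries, was 6.87 and 8.66 against siCXCR4 replicates 1 and 3 and 4.50 against siNC replicate 1, while siCXCR4 replicates 1 and 3 were at 4.42 from each other and the siNC libraries at 5.24. Cxcr4, the siRNA target, had 31.1, 36.2 and 32.7 FPKM in siCXCR4 libraries and 41.3 and 42.1 FPKM in siNC libraries (log2 fold change -0.32, limma adjusted p = 0.457). All 8 macrophage markers were above 1 FPKM, with summed levels of 4149 to 4513 FPKM in siCXCR4 libraries and 4287 to 4525 FPKM in siNC libraries. Of 7 neutrophil markers, 4 averaged at least 1 FPKM, and the summed level of the 7 was 81.8 to 96.7 FPKM in siCXCR4 libraries and 103 to 106 FPKM in siNC libraries, without overlap. Within that list S100a8 and S100a9 had log2 differences of -0.50 and -0.33, Ngp 0.03 and Camp -0.11, while Ly6g was at 0 in 4 of 5 libraries and Mpo and Elane were below 0.1 FPKM in all. Markers of T cells, B cells, erythroid cells and mast cells summed to at most 1.78 FPKM per list. Those of fibroblasts summed to 10.9 to 13.0 FPKM in siCXCR4 libraries and 12.7 to 14.7 FPKM in siNC libraries, and those of dendritic cells to 175 to 187 FPKM in siCXCR4 libraries and 178 to 196 FPKM in siNC libraries. Each of these 2 sums rested almost wholly on 1 of 5 markers, the only 1 averaging at least 1 FPKM. These were Pdgfrb for fibroblasts (mean 12.0 FPKM) and Itgax for dendritic cells (mean 182 FPKM). The part of other cells in the results below was not tested, and in bulk RNA a change in cell makeup and a change in RNA per cell cannot be told apart.

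Over all libraries the 8 mRNAs spanned a wide range of abundance. Zc3h12a averaged 61.4 FPKM and Zfp36 60.9 FPKM, and their values overlapped. Zfp36l2 followed at 31.9 FPKM and Zc3h12c at 26.2 FPKM, without overlap between them. Zc3h12d averaged 13.1, Elavl1 5.89, Rc3h1 4.43 and Zfp36l1 1.38 FPKM, again without overlap between neighbours. The order at the top and the separation of Zc3h12d from Elavl1 rest on the length used. The tables scale Zfp36 by 3470 bases, the whole gene with its intron, and scaling by the 2790 bases of its principal transcript gave 75.7 FPKM, against 64.2 FPKM for Zc3h12a. The same step moved Elavl1 to 10.6 FPKM, since the tables use 10363 bases and the principal transcript has 5743. Zc3h12d stayed at 13.1 FPKM, and its values then overlapped those of Elavl1. Among the ZFP36 relatives, Zfp36 and Zfp36l2 made up nearly all of the measured mRNA, and Zfp36l1 rested on only 70 to 109 reads per library.

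Of the 8 regulators, 0 passed an adjusted p under 0.05 in the comparison of siCXCR4 with siNC by limma over 9943 genes, where 0% of all genes passed. edgeR and DESeq2 on the whole reads called 0 of the 8 too, beside 0.133% and 0.333% of their genes. By limma 3 regulators had an unadjusted p under 0.05 and were higher with siCXCR4, and 0 were lower, beside 9.34% of all genes in either direction, 5.80% higher and 3.54% lower. By edgeR 3 passed as well, beside 9.73%. These 3 were Zc3h12d, Zfp36 and Zc3h12a. In 4 of 8 every siCXCR4 value lay above every siNC value, which held for 17.9% of all genes, and in 0 every value lay below, which held for 9.92% (27.8% in either direction). The median log2 fold change of the 8 was 0.13, beside 0.01 over all tested genes, and 6 of 8 were above 0, beside 56.4% of all tested genes. The 8 are not independent of one another, and nothing particular to them follows from these counts.

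**Figure D2:**
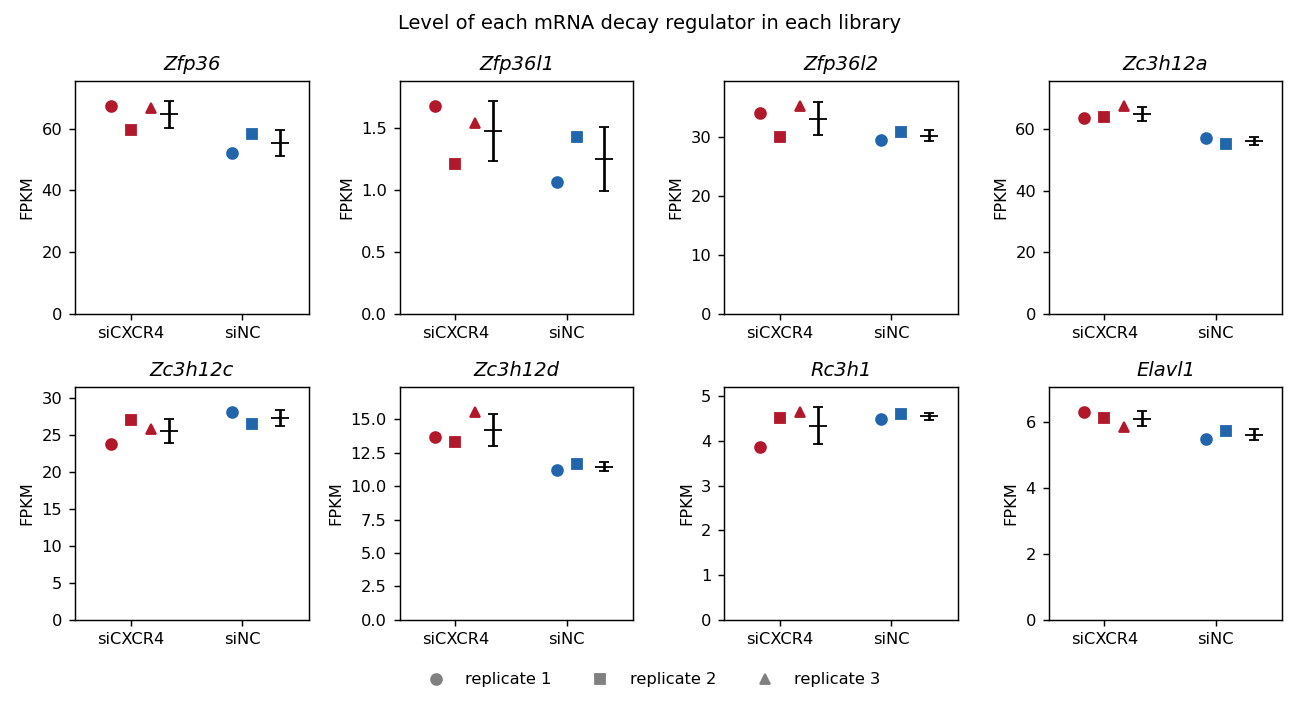
FPKM of each regulator in each library, with siCXCR4 in red and siNC in blue, and the mean and SD as a black bar (n = 3 and 2). Values of Zfp36, Zc3h12a, Zc3h12d and Elavl1 do not overlap between groups, whereas those of Zfp36l1, Zfp36l2, Zc3h12c and Rc3h1 do.

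Zfp36 (chr7:28376784-28380253, minus strand, 2 exons) encodes tristetraprolin, the AU-rich element binder best known for limiting Tnf mRNA. It had 67.4, 59.7 and 66.8 FPKM in siCXCR4 libraries, against 52.2 and 58.3 FPKM in siNC libraries. All siCXCR4 values were higher, although siCXCR4 replicate 2 and siNC replicate 2 lay close together. The means were 64.6 ± 4.26 FPKM with siCXCR4 and 55.3 ± 4.28 FPKM with siNC (SD, n = 3 and 2). On the log2(FPKM + 1) scale the difference was 0.22 (SE 0.0757, 95% interval 0.04 to 0.40, limma adjusted p = 0.504). The exact two-sided permutation test gave p = 0.2, where 0.1 is the smallest that 3 against 2 libraries allow. edgeR's quasi-likelihood test on the whole reads gave 0.21 with an adjusted p of 0.296. Without siNC replicate 1 the difference was 0.14 by limma and 0.13 by edgeR.

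Zfp36l2 (chr17:84183931-84187947, minus strand, 2 exons) encodes a relative of tristetraprolin with the same type of zinc fingers. Its level was 34.0, 29.9 and 35.2 FPKM in siCXCR4 libraries, against 29.5 and 30.8 FPKM in siNC libraries. The groups overlapped through siCXCR4 replicate 2, and the log2 difference was 0.12 (SE 0.0763, 95% interval -0.06 to 0.31, limma adjusted p = 0.637). Zfp36l1 (chr12:80107754-80113013, minus strand, 2 exons), the remaining relative among the 8 regulators, had 1.67, 1.21 and 1.54 FPKM with siCXCR4, against 1.06 and 1.42 FPKM with siNC. These groups overlapped too, and the interval of -0.14 to 0.42 around a log2 difference of 0.14 was the widest of the 8 (limma adjusted p = 0.714). The estimate was 0.02 by limma without siNC replicate 1 and 0.46 by edgeR without siNC replicate 2. Summed over the 3 genes, the ZFP36 level was 103, 90.8 and 104 FPKM in siCXCR4 libraries and 82.8 and 90.5 FPKM in siNC libraries. In each of the 3 genes siCXCR4 replicate 2 was the lowest of the siCXCR4 libraries, and siNC replicate 1 the lowest of all.

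Zc3h12a (chr4:125118423-125127840, minus strand, 6 exons) encodes Regnase-1, which degrades mRNAs such as Il6 and Il12b. It had 63.5, 63.8 and 67.5 FPKM in siCXCR4 libraries, against 56.9 and 55.2 FPKM in siNC libraries. The values within each group were close and the groups did not overlap. The means were 64.9 ± 2.23 FPKM with siCXCR4 and 56.1 ± 1.21 FPKM with siNC (SD, n = 3 and 2), a log2 difference of 0.21 (SE 0.0516, 95% interval 0.08 to 0.33, limma adjusted p = 0.457). The exact two-sided permutation p was 0.1, the smallest possible. edgeR's adjusted p was 0.254, so the difference did not pass by this test either.

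Zc3h12d (chr10:7832470-7870396, plus strand, 6 exons) encodes Regnase-4, a relative of Regnase-1 described in lymphocytes and macrophages. Its level was 13.7, 13.3 and 15.5 FPKM in siCXCR4 libraries, against 11.2 and 11.7 FPKM in siNC libraries. The groups did not overlap, and siCXCR4 replicate 3 was the highest library. The means were 14.2 ± 1.19 FPKM with siCXCR4 and 11.5 ± 0.323 FPKM with siNC (SD, n = 3 and 2). This was the largest log2 difference of the 8, at 0.28 (SE 0.0734, 95% interval 0.11 to 0.46, limma adjusted p = 0.486, edgeR adjusted p = 0.162). The exact two-sided permutation p was again 0.1.

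Zc3h12c (chr9:52111344-52168572, minus strand, 6 exons) encodes Regnase-3, another family member expressed in myeloid cells. It had 23.8, 27.0 and 25.8 FPKM in siCXCR4 libraries, against 28.1 and 26.5 FPKM in siNC libraries. The groups overlapped, with siCXCR4 replicate 1 lowest, and the log2 difference was -0.09 (SE 0.0665, 95% interval -0.25 to 0.06, limma adjusted p = 0.678), with a range of -0.16 to -0.05 over the alternatives. The point estimate for Zc3h12c was thus below 0 where those of Zc3h12a and Zc3h12d were above, but a difference between the genes was not tested. Summed, the 3 Zc3h12 genes had 101, 104 and 109 FPKM in siCXCR4 libraries and 96.3 and 93.4 FPKM in siNC libraries.

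Rc3h1 (chr1:160906418-160974978, plus strand, 20 exons), which encodes Roquin-1, had 3.87, 4.52 and 4.64 FPKM in siCXCR4 libraries, against 4.50 and 4.61 FPKM in siNC libraries. Apart from siCXCR4 replicate 1 the values were nearly level, and the log2 difference was -0.06 (SE 0.0795, 95% interval -0.25 to 0.13, limma adjusted p = 0.829). Without that library the estimate turned to 0.01. Elavl1 (chr8:4285382-4325413, minus strand, 6 exons), which encodes HuR, had 6.29, 6.11 and 5.84 FPKM in siCXCR4 libraries, against 5.48 and 5.73 FPKM in siNC libraries. The groups did not overlap but were separated by little, with a log2 difference of 0.10 (SE 0.0582, 95% interval -0.04 to 0.24, limma adjusted p = 0.617). Elavl1 overlaps Ccl25 on the opposite strand, a gene with 158 reads on average where Elavl1 has 1246, and whether reads were counted by strand is not known.

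Leaving out siCXCR4 replicate 2, the library that stood apart, changed a call in 1 of the 2 tests. By limma 0 regulators were then called, and 4 were higher at an unadjusted p under 0.05, beside 7.92% of all genes. By edgeR, an alternative added after the data were seen, 2 were called higher with siCXCR4, Zfp36 (log2 fold change 0.26, adjusted p = 0.0224) and Zc3h12d (0.33, adjusted p = 0.0127). In that fit 312 of 12750 genes were called (2.45%, of which 0.988% of all genes were higher and 1.46% lower), against 17 of 12794 (0.133%) with all libraries. Without this library 6 of 8 regulators lay entirely above the siNC values, beside 27.8% of all genes, and 1 of 8, Zc3h12c, lay entirely below, beside 19.3%. The same edgeR fit called Cxcr4 lower (log2 fold change -0.40, adjusted p = 0.00104). No labelled reason sets this library apart, and the cause was not tested. Of the siCXCR4 libraries it lay nearest to the siNC libraries in chi-square per gene, so adjusted p-values without it come from a selected fit.

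Short-lived mRNAs, some of which these proteins are known to act on, were set beside the regulators. Of 32 short-lived mRNAs, 23 for cytokines and chemokines and 9 for other inducible proteins, 26 averaged at least 1 FPKM. Of these 26, 0 passed an adjusted p under 0.05 by limma or edgeR, and 3 passed by DESeq2, which called 0.333% of its genes. At an unadjusted p under 0.05, 2 were higher with siCXCR4 (Il10 and Dusp1) and 4 lower (Il1a, Il1b, Il12a and Ptgs2), beside 5.80% of all genes higher and 3.54% lower. As with the regulators, leaving out siCXCR4 replicate 2 changed calls by edgeR, in a fit that called 1.46% of all genes lower and 0.988% higher. That fit called Il12a (log2 fold change -0.67, adjusted p = 2.0e-06), Il1b (-0.47, adjusted p = 0.000316), Il6 (-0.60, adjusted p = 0.00626), Il1a (-0.30, adjusted p = 0.0117), Ptgs2 (-0.26, adjusted p = 0.0226) and Cxcl3 (-1.19, adjusted p = 0.0421) lower and Dusp1 (0.30, adjusted p = 0.00458) higher with siCXCR4. The median log2 fold change was -0.06 over the 17 cytokine mRNAs tested, 0.03 over the other 9 and 0.01 over all tested genes. Il23a, Csf2, Csf3, Cxcl1, Lif and Ifnb1 averaged below 1 FPKM and were not tested.

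**Figure D3:**
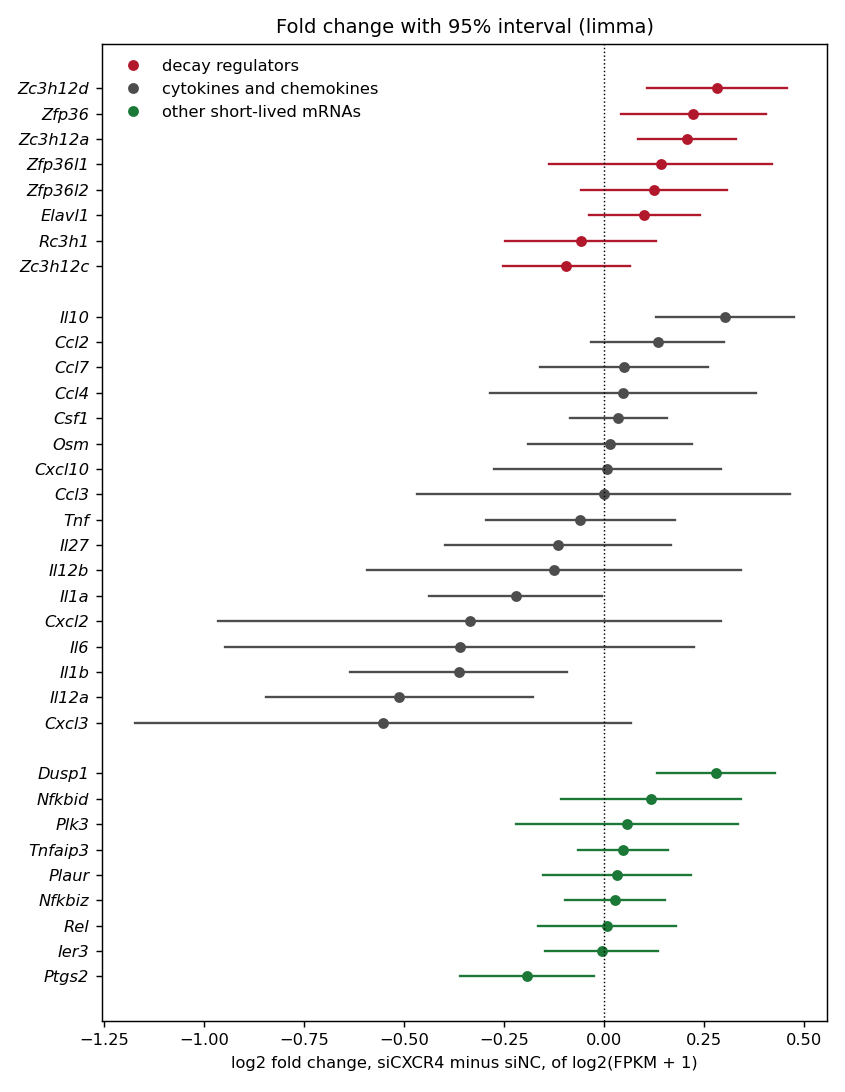
Log2 fold change of log2(FPKM + 1), siCXCR4 minus siNC, with its 95% interval from limma, for the 8 regulators (red), 17 cytokine and chemokine mRNAs (grey) and 9 other short-lived mRNAs (green). Intervals of Zc3h12d, Zfp36 and Zc3h12a lie above 0, as do those of Il10 and Dusp1, while those of Il1a, Il1b, Il12a and Ptgs2 lie below; 0 of the genes passed after adjustment over all genes.

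Il12a, a subunit of interleukin-12, had 42.0, 52.0 and 37.9 FPKM in siCXCR4 libraries, against 65.8 and 59.6 FPKM in siNC libraries. The groups did not overlap, and the log2 difference was -0.51 (SE 0.135, limma adjusted p = 0.488). Il1b, the precursor of interleukin-1 beta, had 1616, 1840 and 1420 FPKM with siCXCR4, against 2174 and 1991 FPKM with siNC, a log2 difference of -0.36 (SE 0.113, limma adjusted p = 0.494). DESeq2 on the whole reads called both Il12a (adjusted p = 0.00242) and Il1b (adjusted p = 0.00998), whereas edgeR with all 5 libraries called neither (adjusted p = 0.294 and 0.211). Il1a had 1320, 1437 and 1183 FPKM in siCXCR4 libraries, against 1587 and 1470 FPKM in siNC libraries, also without overlap, but by a small margin for siCXCR4 replicate 2.

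Il10, the anti-inflammatory cytokine, ran the other way. It had 24.0, 22.4 and 21.2 FPKM in siCXCR4 libraries, against 17.1 and 19.0 FPKM in siNC libraries, a log2 difference of 0.30 (SE 0.0724, limma adjusted p = 0.457). Tnf, the main known target of tristetraprolin, had 649, 747 and 604 FPKM with siCXCR4, against 727 and 659 FPKM with siNC. Its groups overlapped and its log2 difference was -0.06 (SE 0.0985, 95% interval -0.30 to 0.18, limma adjusted p = 0.866). Il6, a known target of Regnase-1, had 18.1, 26.2 and 16.6 FPKM in siCXCR4 libraries, against 29.2 and 22.9 FPKM in siNC libraries, with overlap and an interval of -0.95 to 0.23. The chemokine mRNAs Cxcl2 and Cxcl3 had log2 differences of -0.34 and -0.55 with intervals that held 0. Cxcl10, Ccl3, Ccl4, Ccl7, Osm and Csf1 had differences between -0.00 and 0.05, those of Il12b and Il27 were -0.13 and -0.12, and that of Ccl2 was 0.13; none of these 9 passed at an unadjusted p under 0.05.

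Among the other short-lived mRNAs, Dusp1 encodes the phosphatase that switches off p38 MAPK, the kinase upstream of tristetraprolin phosphorylation. It had 142, 132 and 144 FPKM in siCXCR4 libraries, against 110 and 118 FPKM in siNC libraries. The groups did not overlap, and the log2 difference was 0.28 (SE 0.0620, limma adjusted p = 0.457, edgeR adjusted p = 0.107, DESeq2 adjusted p = 0.0230). Ptgs2, which encodes cyclooxygenase-2, had 277, 316 and 292 FPKM with siCXCR4, against 328 and 345 FPKM with siNC, again without overlap (log2 difference -0.19, limma adjusted p = 0.512). Nfkbiz, Nfkbid and Rel, known targets of the stem-loop binding regulators, had log2 differences of 0.03, 0.12 and 0.01. Those of Ier3, Tnfaip3, Plaur and Plk3 were -0.01, 0.05, 0.03 and 0.06. Sorted by site, the 10 tested short-lived mRNAs with TTATTTATT had a median log2 fold change of -0.09, the 10 with TATTTAT alone -0.00 and the 6 with neither 0.04. Over all 658 tested genes with TTATTTATT the median was 0.01, beside 0.02 over the 8872 tested genes with a 3′ UTR.

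Levels of cytokine and regulator mRNAs can also be read as ratios within a library. Tnf exceeded Zfp36 by a ratio of FPKM of 9.63, 12.5 and 9.04 in siCXCR4 libraries, against 13.9 and 11.3 in siNC libraries, with overlap. The Il1b to Zfp36 ratio was 24.0, 30.8 and 21.3 with siCXCR4, against 41.6 and 34.2 with siNC, without overlap. Il1b alone was lower and Zfp36 alone higher in every siCXCR4 library, so this ratio could not overlap and adds no support. The Il6 to Zc3h12a ratio was 0.285, 0.410 and 0.247 with siCXCR4, against 0.513 and 0.415 with siNC, where siCXCR4 replicate 2 lay just under siNC replicate 2. Il6 alone overlapped between the groups and Zc3h12a alone did not, so this separation adds no support for a difference in Il6. A ratio shows unequal levels and not which of its mRNAs differs.

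The libraries did not order in the same way for all mRNAs. For Tnf, Ccl3, Cxcl2, Il6 and Il12b, siNC replicate 1 and siCXCR4 replicate 2 were the 2 highest libraries. On the log2(FPKM + 1) scale, Cxcl2 stood 0.24 above the mean of the 5 libraries in siCXCR4 replicate 2, beside -0.25 and -0.39 in siCXCR4 replicates 1 and 3, and 0.41 above it in siNC replicate 1, beside -0.01 in siNC replicate 2. Zfp36 was at 0.15 and 0.14 in siCXCR4 replicates 1 and 3, at -0.02 in siCXCR4 replicate 2, and at -0.21 and -0.06 in siNC replicates 1 and 2. Zfp36 was thus lower in siNC replicate 2 than in siCXCR4 replicate 2 by a small margin, and those 5 cytokine mRNAs were lower there too. Whether Zfp36 and these cytokine mRNAs ran in inverse order was not tested. Zc3h12a was at 0.06 in siCXCR4 replicate 2, above its value of 0.05 in siCXCR4 replicate 1. With 5 libraries no correlation was computed.

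**Figure D4:**
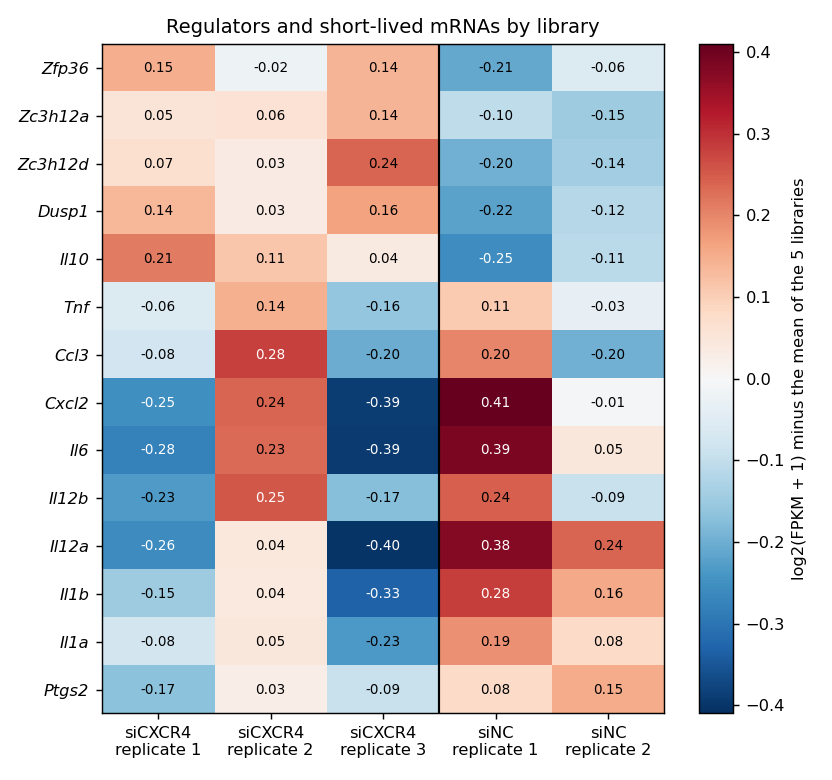
Log2(FPKM + 1) minus the mean of the 5 libraries for 3 regulators and 11 short-lived mRNAs, genes picked after their values were seen, with red above and blue below the mean and the number in each cell. Zfp36, Zc3h12a and Zc3h12d are lowest in the siNC libraries, and Cxcl2 and Il6 are high in siCXCR4 replicate 2 as well as in siNC replicate 1.

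Proteins that modify, assist or oppose the regulators were examined as a list of 27 partners. Of these 22 were tested, 14 had a log2 fold change above 0, beside 56.4% of all genes, and the median was 0.03. In 6 every siCXCR4 value lay above every siNC value and in 3 below, beside 17.9% and 9.92% of all genes. By limma and edgeR 0 were called. Dusp1 alone passed an unadjusted p under 0.05 by limma, beside 9.34% of all genes. At the same threshold 3 partners passed by edgeR, Dusp1 and Celf1 among them, beside 9.73% of its genes. DESeq2 called Dusp1 alone, beside 0.333% of its genes. Ppp2r1a, the scaffold subunit of the phosphatase PP2A, had 91.6 ± 3.23 FPKM with siCXCR4 and 84.5 ± 0.586 FPKM with siNC (SD, n = 3 and 2). Arid5a, a protein that protects Il6 mRNA from Regnase-1, had 12.3 ± 0.544 FPKM with siCXCR4 and 11.2 ± 0.690 FPKM with siNC, a log2 difference of 0.13 (limma adjusted p = 0.567). Celf1, a binder of GU-rich elements, had a log2 difference of -0.11. Mapkapk2, the kinase MK2 that phosphorylates tristetraprolin, was the most abundant partner at 352 ± 7.51 FPKM with siCXCR4 and 332 ± 24.0 FPKM with siNC, and its groups overlapped.

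Among the enzymes that carry out the decay, 0 genes were called by limma, edgeR or DESeq2 with all 5 libraries. By limma 1 gene in each of the 3 lists had an unadjusted p under 0.05 (Btg2, Lsm7 and Dis3l). Of all genes 9.34% did so, a share that no list exceeded. Of the 19 deadenylation genes, all tested, 15 were above 0 with a median of 0.04, beside 56.4% and 0.01 over all tested genes. Btg2, an adaptor that stimulates deadenylation, had 7.68, 7.62 and 7.33 FPKM in siCXCR4 libraries, against 6.31 and 6.47 FPKM in siNC libraries, a log2 difference of 0.21 (SE 0.0531, limma adjusted p = 0.481). Pan2, Pabpc1 and Cnot9 had log2 differences of -0.14, 0.12 and 0.10. Of 15 decapping and 5′-to-3′ decay genes 14 were tested, 6 were above 0 (beside 56.4% of all tested genes) and the median was -0.01. Lsm7, a subunit of the Lsm ring, had 3.13, 4.25 and 2.64 FPKM with siCXCR4, against 6.06 and 4.40 FPKM with siNC, without overlap but with siCXCR4 replicate 2 next to siNC replicate 2 (log2 difference -0.53, limma adjusted p = 0.513). Such a separation, with siCXCR4 lower, held for 9.92% of all genes. Without siCXCR4 replicate 2, edgeR called Lsm7 lower (log2 fold change -0.88, adjusted p = 0.00492), in the selected fit that called 1.46% of all genes lower. With all 5 libraries edgeR's adjusted p for Lsm7 was 0.264, and DESeq2 gave it no adjusted p. Lsm2, Patl1, Edc3 and Ddx6 had differences of 0.20, 0.13, 0.09 and -0.01.

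Of 15 exosome genes 13 were tested, 6 were above 0 (beside 56.4% of all tested genes) and the median was -0.00. Dis3l, a cytoplasmic catalytic subunit of the exosome, had 3.28, 3.08 and 3.26 FPKM in siCXCR4 libraries, against 2.75 and 2.43 FPKM in siNC libraries, a log2 difference of 0.23 (SE 0.0701, limma adjusted p = 0.494). The groups of Dis3l did not overlap, and such a separation with siCXCR4 higher held for 17.9% of all genes. Exosc2, Exosc3, Exosc5 and Exosc10 had differences of 0.19, -0.10, -0.07 and 0.03.

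Among the genes whose values over the 5 libraries lay nearest to those of Zc3h12a, the most abundant regulator by the lengths of the tables, were Ankrd54 and Tmem104, with root mean square differences of centred log2(FPKM + 1) of 0.0143 and 0.0149. For Zc3h12d, the regulator with the widest range over libraries on this scale, they were Ocstamp, Zfp703 and Chst11, at 0.0290, 0.0316 and 0.0326.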

How the data were processed

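The authors deposited 1 table of genes per sample. Of 6 tables, 5 hold normalized values read here as FPKM deposited by the authors. The headers give no unit, FPKM and RPKM cannot be told apart, and the unit follows from the values, each a whole number of reads within a tolerance of 0.05. The table of siNC replicate 3 holds read counts, as deposited by the authors, that repeat siNC replicate 2. The sources used here name no aligner, counting tool or strand setting. The submitters' processing notes name mm9, but 53499 of 54409 genes shared with GENCODE M21 (98.3%) had its GRCm38 position, so GRCm38 is used.

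limma 3.58.1 (R 4.3.3, trend and robust) was fitted to log2(FPKM + 1) of the 9943 genes averaging at least 1 FPKM. Tests were two-sided, and p-values were adjusted after Benjamini and Hochberg over all genes, with a threshold of 0.05. Of 102 symbols with several entries the highest mean was kept. edgeR 4.0.16 (TMM, quasi-likelihood) and DESeq2 1.42.0 ran on whole reads worked back from FPKM. Both limma and edgeR were tested on simulated data. The planted changes were larger than those of any regulator, so the power at the sizes reported here was not tested. The planned design was of 6 libraries, and 5 remained. A fold change on this scale understates that of low genes. Read numbers show counting error alone, since the reads carry no molecular identifiers.

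One 3′ UTR per gene was read from GENCODE M21, that of the principal protein-coding transcript with the longest UTR. The genes named were the 8 regulators, Cxcr4, the short-lived mRNAs averaging at least 1 FPKM, of each other list up to 4 of lowest p and the most abundant, and the nearest 3 genes in pattern. Of the genes this rule names, 1 is not reported here. The regulators, the lists and the tests were chosen with earlier results of these data known. Alternatives were other tests, scalings, filters (none, a mean of at least 5), pseudocounts of 0.1 and 0.01, a replicate block, the copy counted separately, summed entries and each library left out.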

Additional observations from a re-analysis of the deposited data

How the results depend on the processing

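Over 22 alternatives, 17 of them planned, 7 of 8 regulators kept the direction of their fold change, and Rc3h1 turned only without siCXCR4 replicate 1. The count of all genes called was 0 by limma, 17 by edgeR (1245 at an unadjusted p under 0.05), 28 by DESeq2 and 6 with siNC replicate 3 counted separately. With each library left out, by limma or edgeR, it ran between 0 and 312, and the count of regulators called between 0 and 2, reached in edgeR without siCXCR4 replicate 2. The adjusted p over the alternatives ran from 0.0224 to 0.924 for Zfp36, 0.0715 to 0.924 for Zc3h12a and 0.0127 to 0.924 for Zc3h12d. The median log2 fold change ran from -0.0061 to 0.060 for the partners, 0.0072 to 0.069 for deadenylation, -0.044 to 0.047 for the exosome and -0.074 to 0.020 for the short-lived mRNAs. The labels give same-numbered libraries no shared source, and their deviations correlated at -0.04 and -0.11, which cannot settle a pairing since 2 siNC libraries deviate as mirror images. With the replicate block, which uses only replicates 1 and 2 of each group, 0 genes were called, and the log2 fold change was 0.00821 for Tnf, -0.027 for Cxcl10, 0.10 for Ccl3 and 0.0074 for Ddx6, each turned in direction. Cxcl10 also turned by edgeR (-0.0060), under quantile normalization (-0.045) and with the copy counted separately (-0.024). Rel turned by edgeR (-0.013), by DESeq2 (-0.0065), under quantile normalization (-0.000381) and with the copy (-0.026), and with the copy Ccl3 (0.065) and Osm (-0.017) turned too. The cause was not tested.

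With each library left out, log2 fold changes that turned ran from -0.20 to 0.20 for Ccl3, -0.094 to 0.18 for Ccl4, -0.046 to 0.12 for Ccl7, -0.016 to 0.071 for Csf1, -0.10 to 0.11 for Cxcl10, -0.047 to 0.0074 for Ddx6, -0.022 to 0.047 for Exosc10, -0.059 to 0.035 for Ier3, -0.31 to 0.042 for Il12b, -0.031 to 0.068 for Nfkbiz, -0.10 to 0.11 for Osm, -0.054 to 0.10 for Plaur, -0.10 to 0.21 for Plk3, -0.14 to 0.0063 for Rc3h1, -0.12 to 0.11 for Rel and -0.16 to 0.010 for Tnf. A filter of at least 5 FPKM left no value for Zfp36l1 and Rc3h1. Of the regulators that kept their direction, Zfp36l1 ran from 0.024 to 0.46, Zfp36l2 from 0.065 to 0.19, Zfp36 from 0.13 to 0.30 and Elavl1 from 0.068 to 0.14. The 70 to 109 reads of Zfp36l1 limit its precision.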
